A study of Sus scrofa domesticus with 4 samples.

Results

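Genes that mark T cells and natural killer (NK) cells were followed in pig myometrium, the muscular wall of the uterus, kept in culture. The genes were IL7R, NKG7, CD2, CD3E, CD4, CD8A, CD247 and PRF1. Every probe whose RefSeq accession belongs to 1 of these 8 pig genes was taken, whatever its values. This gave 11 probes of 7 genes among 43603 probes on the array; no accession on the array matched PRF1, which encodes the pore-forming protein perforin, and PRF1 was not analysed here. IL7R, CD4, CD8A and CD247 had 2 probes each, named probe 1 (the brighter) and probe 2, and NKG7, CD2 and CD3E had 1 each.

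RNA came from 4 mature gilts (Large White x Polish Landrace, 7 to 8 months old, 120 to 130 kg) at gestation days 15 to 16. After 2 h of preincubation, slices of 100 mg in 2 ml of medium stayed for 24 h either in the presence of adiponectin, a hormone made by adipocytes, at 10 µg/ml (treated) or in its absence (control). The series asked how adiponectin affects gene expression in this tissue. Each of 4 arrays with 2 colours held 1 treated and 1 control RNA. All explants, control ones included, thus came from pregnant animals and went through the same culture. Which gilt went onto which array, and if the treated and the control RNA of an array share a gilt, is not in the labels; the spread behind each p-value is that of the 4 arrays and may be partly technical.

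Treated RNA carried Cy5 on arrays 1 and 3, and Cy3 on arrays 2 and 4, by the labels' dye fields, from which the direction of ratios was taken. The labelling protocol, in contrast, mentions treated RNA in Cy5 alone. The authors' deposited series table had the same direction as the dye fields on every array: set against the ratios turned by those fields, its slope was 1.00 on each of the 4 arrays. Arrays 1, 2 and 3 shared slide 1 and array 4 was on slide 2. Spots well above background made up 46.1% to 51.0% in Cy3 and 54.9% to 63.1% in Cy5. Over the 22074 tested probes, Pearson's r between turned ratios of array pairs lay between -0.31 (arrays 2 and 3) and 0.26 (arrays 2 and 4), a correlation across probes, which are not independent replicates.

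T cells recognise antigen through the T-cell receptor, whose signal passes through the CD3 chains, CD3E among them, and through the zeta chain encoded by CD247, which NK cells also use behind some of their activating receptors. CD4 and CD8A are co-receptors for MHC class II and class I molecules, and in pigs CD8A is also carried by NK cells. CD2 is an adhesion receptor of T and NK cells, NKG7 a membrane protein of their cytotoxic granules, and IL7R the alpha chain of the receptor for interleukin 7, a survival factor of T cells. In a pregnant uterus such lymphocytes are a minority beside the muscle, so a probe reads a small share of the RNA. In bulk RNA, fewer cells of a type and less RNA per cell cannot be told apart.

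Detection of these genes was low. The processed signal of the scanner is an intensity, background-subtracted and dye-normalised within an array, and a spot counts as well above background by the scanner's own mark. NKG7 was well above background in all 8 channels (4 arrays with 2 colours), the only 1 of the 11 probes to be so (9.09%), whereas 42.0% of all probes on the array were. The probes that were well above background in no channel numbered 4 (36.4%): CD4 probe 2, both CD8A probes and CD247 probe 2, against 32.9% of all probes. The T-cell label thus rests on dim spots for CD3E, CD4 and CD8A. Smooth muscle markers, in contrast, were well above background in all 8 channels for 7 of 7 genes found on the array, among them ACTA2, DES and MYL9. The B-cell markers MS4A1 and CD79A were on the array and did not pass the filter for a test.

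The colour of the dye moved with detection. Over the 11 probes, 19 of 44 Cy5 channels (43.2%) and 7 of 44 Cy3 channels (15.9%) were well above background. By condition it was 16 of 44 treated (36.4%) and 10 of 44 control channels (22.7%). Of all probes, 47.1% to 63.2% were well above background in the treated channel of an array and 46.2% to 56.5% in the control channel. Both IL7R probes, CD2 and CD4 probe 1 had more treated than control channels detected, and the remaining probes had equal counts. For the dye, CD3E gives the clearest case. It was well above background in Cy5 on all 4 arrays and in Cy3 on none, so in 2 treated and 2 control channels. That pattern was shared by 1.75% of all probes. CD2 was likewise detected in Cy5 only, in 2 treated and 1 control channel. IL7R probe 1 was detected in 2 treated Cy5 channels, 1 treated Cy3 channel and no control channel of either dye. The part of the dye in this pattern was not tested.

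**Figure D1:**
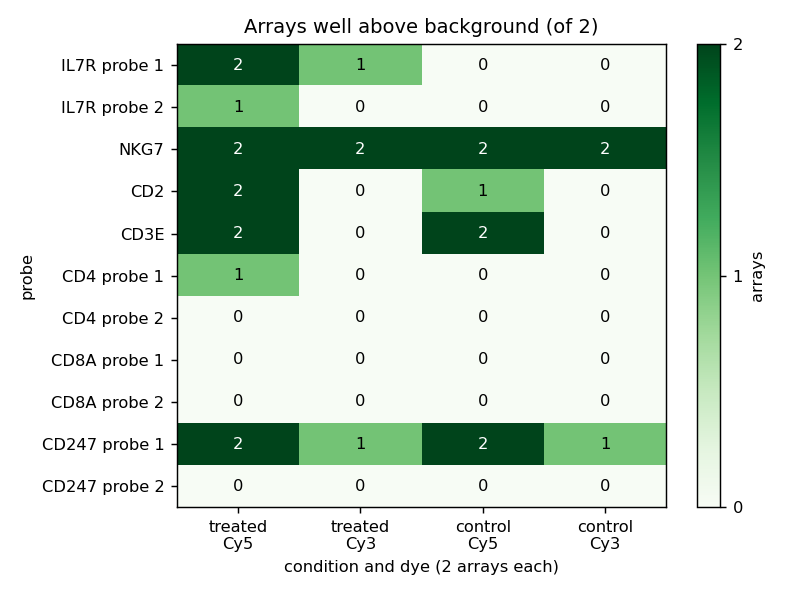
Number of arrays, of 2, on which each of the 11 probes (rows) was well above background in each combination of condition and dye (columns). IL7R probe 1 has 2 and 1 in the treated columns and 0 in the control columns, while CD3E has 2 in each Cy5 column and 0 in each Cy3 column.

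IL7R stood out among the members. Its probe 1 (A_72_P674582) had treated signals of 83.4, 28.8, 60.9 and 56.7 on arrays 1 to 4. Control signals on the same arrays were 20.6, 18.7, 10.75 and 7.40. The treated signal was the higher of the pair on each array, and the lowest treated value lay above the highest control value. Of the tested probes, 0.299% had every treated signal above every control signal. IL7R probe 1 came into the test through its treated channels alone, so that share is not read as support for a change. The scanner's error of these signals ran from 7.94 to 11.4 in treated and from 5.42 to 10.71 in control channels. On array 3 the control spot was not positive and significant, and its signal (10.75) about equalled its error (10.71), so the ratio of array 3 rests on a control signal that was not measurable.

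On the log2 scale of treated over control, IL7R probe 1 stood at 2.02, 0.62, 2.50 and 2.94 on arrays 1 to 4. The ratios were above 0 in both dye orientations, with a mean of 2.26 where treated RNA was in Cy5 and of 1.78 where it was in Cy3. Ratios above 0 on all 4 arrays were found for 6.37% of the tested probes, and below 0 on all 4 for 6.23%. The fitted log2 change was 2.02 ± 0.37 (moderated SE, n = 4 arrays), a value over control spots of which none was well above background, so it is not read as a fold. The probe entered the test through its treated channels alone, 3 of which were well above background. It did not pass the test over all probes (limma, two-sided, adjusted p = 0.857; unadjusted p = 0.00192).

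Because the control spot was not well above background on any array, only a lower bound of the fold can be given. For this bound, the lowest signal of bright spots stood in for the dim control signal. By that rule, the mean over the 4 arrays of the scanner's signals was at least 2.02-fold higher in treated explants. Measured means were 5.75 in treated and 3.73 in control channels on the log2 signal scale. The bound is an estimate from 4 arrays and has no test or interval of its own. The limma fit of the ratios had an adjusted p of 0.857. The treated mean includes the spot of array 2, which was not well above background and where the measured ratio was 1.54-fold. The bound, 1.01 on the log2 scale, holds for the scanner's signals only, since other ways of processing gave smaller changes. Detection on at least 3 treated and 0 control arrays was found for 0.0275% of all probes, 12 in number, and the opposite pattern for 0 probes. VSIG4, a complement receptor of tissue macrophages, had another of these 12 probes, at a log2 change of 0.80. The brightest tested VSIG4 probe, however, was well above background in all 8 channels. AMPD1, a muscle AMP deaminase, had a further 1 of the 12, at 0.62. Both genes were picked out after their values were seen.

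The size of the IL7R change depended on how dim signals were treated. With normexp correction at an offset of 50 and loess normalisation it was 0.43 (adjusted p = 0.959), with the same steps at an offset of 0 it was 0.70, and with 50 added to both processed signals it was 0.72. An added constant brings the ratio of dim spots toward 0 by construction. The setting with an offset of 0 adds no such constant, and why it also gave a smaller change was not tested. Leaving out 1 array gave values between 1.44 (without array 4, which leaves slide 1 alone) and 2.60 (without array 2), with adjusted p between 0.339 and 0.878.

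The other IL7R probe (A_72_P237197) gave a smaller and less even difference. Its treated signals were 33.7, 11.2, 19.4 and 22.5 on arrays 1 to 4, and its control signals 11.3, 19.4, 8.76 and 19.9. The groups overlapped, and only the treated spot of array 1 was well above background. Its log2 ratios were 1.57, -0.79, 1.15 and 0.18, a mean of 0.53 ± 1.06 (SD, n = 4), with array 2 below 0 where probe 1 stood above it. The ratios averaged 1.36 with treated RNA in Cy5 and -0.31 in Cy3. The probe was too dim to be tested. The rule behind the bound of probe 1 gave 0.73-fold here, which bounds no rise.

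**Figure D2:**
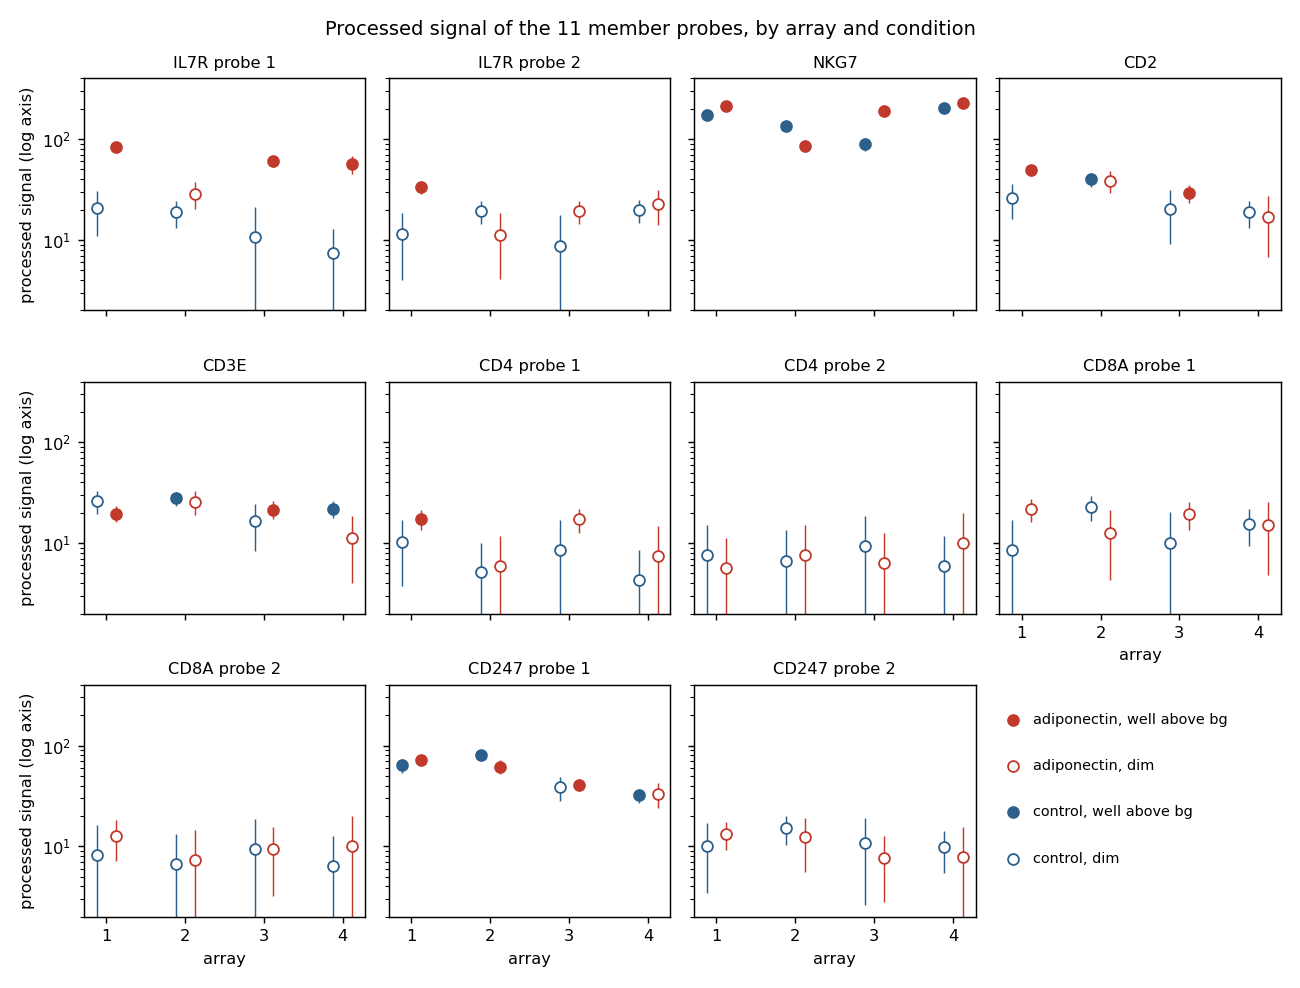
Processed signal (log axis, intensity) of the 11 probes on arrays 1 to 4 in adiponectin-treated (red) and control (blue) channels, filled where well above background and open where dim. Bars are the scanner's error, and a bar that runs to the lower edge includes 0 or nearly so; IL7R probe 1 is the only probe whose treated signals, 28.8 to 83.4, all lie above its control signals, 7.40 to 20.6.

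NKG7 was the best measured member and showed no shared direction. Treated signals of its probe (A_72_P210427) were 211, 85.9, 188 and 228 on arrays 1 to 4, and control signals 174, 135, 88.8 and 204. The ranges overlapped almost wholly. Log2 ratios were 0.28, -0.65, 1.08 and 0.16, each with a scanner error of 0.21 to 0.25. Array 2 was thus below 0, and arrays 1 and 3 above 0, by more than that error. The fitted log2 change was 0.22 ± 0.21 (SE, n = 4 arrays), with an interval from -0.31 to 0.75 (limma adjusted p = 0.900). It was 0.42 without array 1 or without array 2, and 0.02 without array 3 or without array 4.

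CD247 probe 1 (A_72_P374908), for the zeta chain, was nearly level. Treated signals were 71.6, 61.4, 40.7 and 33.2 and control signals 63.8, 81.3, 38.5 and 32.2 on arrays 1 to 4. Signals differed more between arrays than between conditions, with arrays 3 and 4 lower than arrays 1 and 2 in both. The log2 ratios were 0.16, -0.40, 0.08 and 0.05, and the fitted change was -0.03 ± 0.15 (SE, n = 4 arrays) with an interval from -0.39 to 0.33 (limma adjusted p = 0.979). That interval leaves room for a change of up to 1.26-fold higher. CD247 probe 2 was dim in all 8 channels, with signals between 7.68 and 15.1 and a mean log2 ratio of -0.18 ± 0.39 (SD, n = 4).

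The remaining T-cell genes were too dim to be tested, and the sign of the ratios of CD2 and CD8A probe 1 alternated with the dye, which was not tested. CD2 had treated signals of 49.5, 38.8, 29.2 and 17.0 and control signals of 25.8, 39.8, 20.2 and 18.9. Its log2 ratios were 0.94 and 0.53 on arrays 1 and 3 but -0.04 and -0.15 on arrays 2 and 4, with a mean of 0.32 ± 0.51 (SD, n = 4). The sign thus changed with the dye of the treated RNA. On arrays 2 and 4, however, the ratios were smaller than their scanner errors, 0.43 and 0.95. CD8A probe 1 showed the same alternation, at 1.34 and 0.94 against -0.84 and -0.03, with scanner errors of 0.88 to 1.19 and a mean of 0.35 ± 0.98. Its signals lay between 8.59 and 22.9. CD8A probe 2 had a ratio on arrays 1 and 3 only, 0.62 and 0.01.

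CD3E, the chain that defines T cells most directly, had treated signals of 19.7, 25.9, 21.5 and 11.2 and control signals of 26.3, 27.8, 16.5 and 21.9. The groups overlapped, and the control signal was the higher of the pair on 3 of 4 arrays. Log2 ratios were -0.42, -0.10, 0.39 and -0.96, with scanner errors of 0.44 to 0.76 and a mean of -0.28 ± 0.57 (SD, n = 4). Values of IL7R and CD3E therefore lay on opposite sides of 0 on average, a difference between them that was not tested. CD3E does not stand for the other members here. Among those with a ratio on all 4 arrays, NKG7 (0.22), CD2 (0.32) and CD8A probe 1 (0.35) also lay above 0 on average. CD247 probe 1 (-0.03) and CD247 probe 2 (-0.18) lay below 0. CD4 probe 1 was well above background in 1 channel, treated Cy5 on array 1, and had a ratio only on arrays 1 and 3, at 0.75 and 0.99. Both arrays have treated RNA in Cy5, so treatment and dye cannot be told apart for CD4. CD4 probe 2, with signals between 5.62 and 9.95, had a ratio on no array.

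Over all 8 probes with 4 ratios, the dye term was above 0, which means a higher Cy5 than Cy3 signal on average. It was largest for IL7R probe 2 at 0.83 and CD8A probe 1 at 0.79, and was 0.24 for IL7R probe 1. Of all tested probes, 51.2% had a dye term above 0. That is not a like set, since 5 of the 8 member probes were too dim to be tested. The share among dim probes is not given here. When the filter on dim probes was dropped, the 5 untested probes with 4 ratios could be fitted too. The smallest unadjusted p among them was 0.0548 (IL7R probe 2), and no adjusted p was below 0.900 in this limma fit over 28396 probes.

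**Figure D3:**
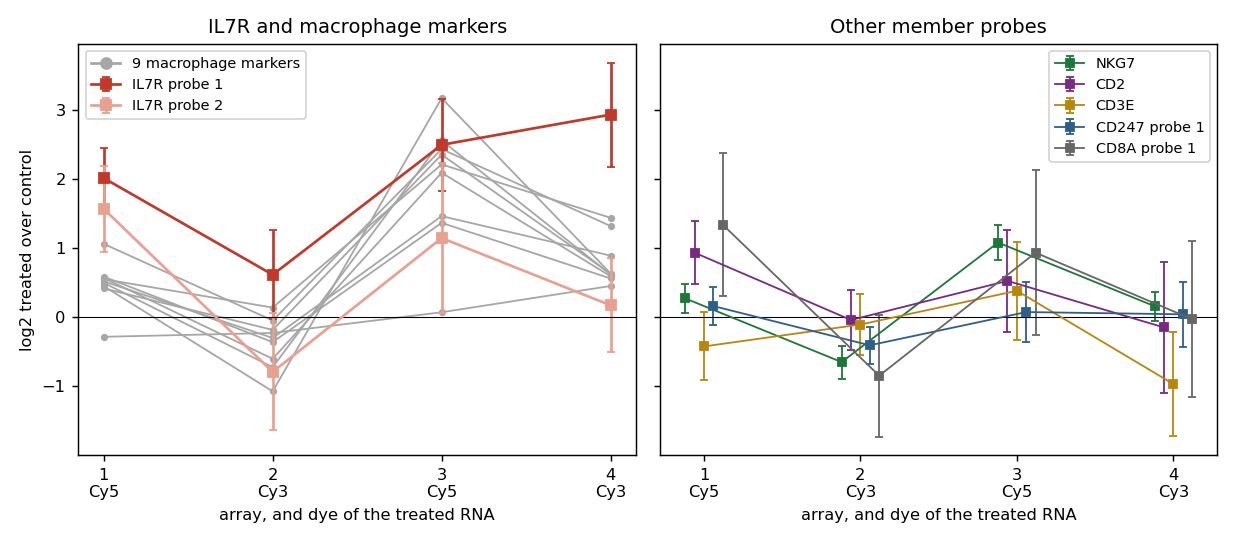
Log2 ratio of treated over control on arrays 1 to 4, with the dye of the treated RNA under each array number; bars are the scanner's error of the ratio. The left panel shows both IL7R probes and 9 macrophage markers (grey), with array 2 lowest for IL7R probe 1 at 0.62, and the right panel shows 5 other member probes, of which NKG7 runs from -0.65 to 1.08.

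Across all genes, limma called 0 probes higher (0%) and 0 lower, with 834 higher (3.78%) and 422 lower (1.91%), 1256 in all (5.69%), at an unadjusted p under 0.05. Of the 3 tested member probes, 1 (IL7R probe 1) is among the 834. That probe passed the filter through its treated channels alone, over dim control spots, so its place there is not read as support for a change. Without array 3, 12 probes were called higher, and IL7R probe 1 was not among them (adjusted p = 0.378). The median log2 change of the 22074 probes was 0.00, and 49.5% lay above 0. The median 95% interval of a tested probe reached 0.39 to either side.

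Other genes of T and NK cells did not pass either. In 5 lists with 109 genes, 28 genes were tested, 0 were called in each direction, 13 lay above 0 and their median log2 change was -0.02. At an unadjusted p under 0.05 the fit counted 1 higher and 1 lower gene. The lower was IL15, the cytokine that sustains NK cells, at -0.46 ± 0.18 (SE, n = 4 arrays). IL15 had log2 ratios of 0.20, -0.52, -0.46 and -1.07 on arrays 1 to 4, below 0 on 3 of them, and its second tested probe stood at -0.18.

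For the T-cell receptor complex and its co-receptors, 3 of 6 tested genes lay above 0 and the median log2 change was 0.02. CD3G, another CD3 chain, had the highest value of the list, 0.44 ± 0.40 (SE, n = 4 arrays). Its log2 ratios were -0.33, 2.29, 0.04 and -0.22 on arrays 1 to 4. CD48, a ligand of CD2 in rodents, was at 0.21, CD58, the CD2 ligand of humans, at 0.12 (and -0.08 by its other probe), and CD96, a receptor of T and NK cells, at -0.55. T-cell signalling had 2 tested genes, the kinases LCK at -0.21 and FYN at -0.27, both below 0 and neither called. Among cytotoxic and NK-cell genes, 5 of 9 lay above 0 with a median of 0.10. The 3 highest values in that list belonged to receptor and adaptor chains that macrophages express as well: FCER1G was at 0.61, the Fc receptor FCGR3A at 0.47 and TYROBP at 0.42, each below 0 on array 2 and highest on array 3. Granzymes, the proteases that perforin delivers into target cells, lay nearer to 0, with GZMB at -0.01, GZMH at -0.11 and GZMM at 0.18. LAMP1, a lysosomal membrane protein exposed when granules are released and present in most cells, was at -0.25. In the interleukin 7 and common gamma chain list, 2 of 5 genes lay above 0 with a median of -0.03, and the kinase JAK1, which signals from IL7R, was at 0.21, with its 5 probes between -0.07 and 0.21. IL7 itself and IL2RG, the common gamma chain that pairs with IL7R, were on the array and too dim to be tested. Of 6 lineage factors and effector cytokines, 3 lay above 0, the median was -0.04, and LEF1, a T-cell transcription factor also found in other tissues, was at -0.46. CCL5, a chemokine made by T and NK cells, was at -0.26.

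**Figure D4:**
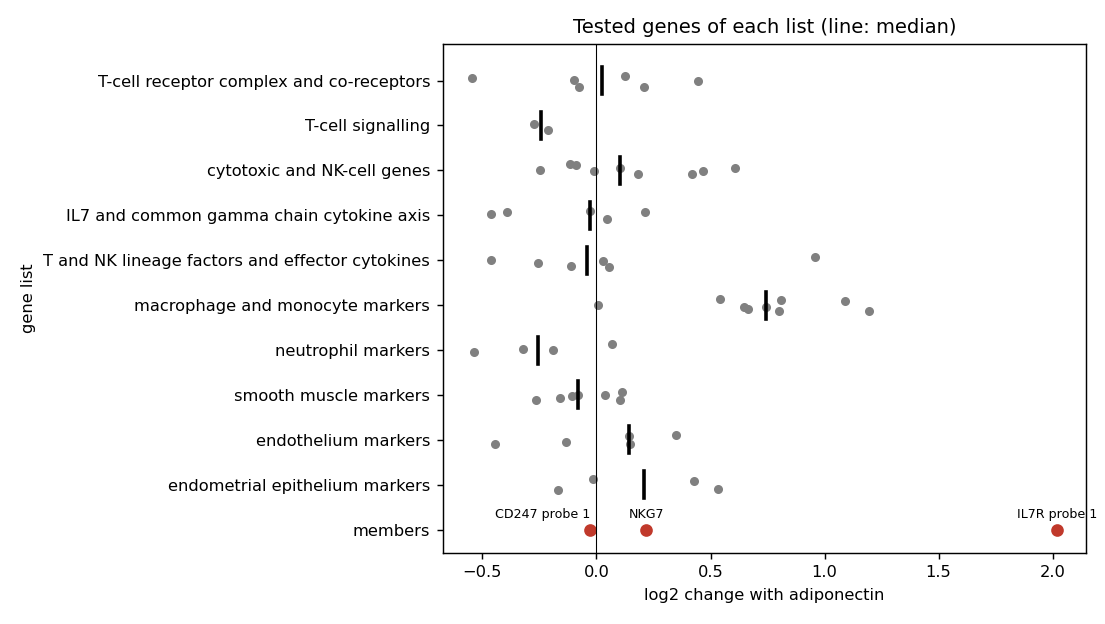
Log2 change with adiponectin (x axis) of the tested genes of each list (grey points, 1 probe per gene), with the list median as a black line, and the 3 tested member probes in red. IL7R probe 1, whose control spots were dim, lies at 2.02, and the macrophage list has the highest median, 0.74.

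Macrophage markers lay above 0 along with IL7R. All 9 tested macrophage and monocyte markers, of 11 on the array, had a log2 change above 0, with a median of 0.74, 0 calls and 3 higher at an unadjusted p under 0.05. Arrays 1 to 4 gave medians of 0.52, -0.30, 2.22 and 0.63 for this list, and the median of the fitted changes was 1.26 without array 1, 0.32 without array 3 and 0.37 without array 4. The summed signal of the 9 markers ran from 1926 to 8738 in treated and from 1779 to 5162 in control channels, so the groups overlapped. VSIG4 at 1.20 ± 0.31 (SE, n = 4 arrays) and CD163 at 1.09 ± 0.34 were the highest 2 genes of the list, while CD14, a defining monocyte receptor, stood at 0.01. IL7R probe 1 was at 2.94 on array 4, where VSIG4 was at 1.32 and CD163 at 1.44, and at 0.62 on array 2, a ratio no larger than its scanner error of 0.64, where CD163 was at 0.14. The part of macrophage content in the IL7R result was not tested.

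Other marker lists stayed nearer to 0. Median log2 changes were -0.08 for 7 smooth muscle genes (MYL9 at -0.26, TPM2 at -0.16), -0.26 for 4 neutrophil genes (PGLYRP1 at -0.54, S100A9 at -0.32), 0.14 for 5 endothelial genes (ENG at -0.45, PECAM1 at 0.35) and 0.21 for 4 endometrial epithelial genes (EPCAM at 0.53, KRT8 at 0.43). EPCAM turned to -0.27 with normexp at an offset of 50 and loess and to -0.60 at an offset of 0, and its 16 probes lay between 0.03 and 0.60. These lists also shifted from array to array. The smooth muscle median was -0.66 on array 1 and 0.58 on array 3, and the epithelial median -0.43, 1.02, -0.83 and 0.84 on arrays 1 to 4. Summed epithelial signal ran from 210.6 to 4715 in treated and from 236.6 to 1741 in control channels, and summed smooth muscle signal from 316878 to 490474 and from 270039 to 563069. The part of such differences in tissue content in the member ratios was not tested.

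The genes whose ratios were nearest to those of a member were found over 2130 other named genes, by the root mean square difference of the 4 log2 ratios. For IL7R probe 1 these were VSIG4, with a difference of 1.00, and CD163, a scavenger receptor of macrophages, with 1.08. Both differences are wide. The log2 change of IL7R probe 1 ranked 2 among 22074 tested probes, so only genes with large ratios can come near it by this measure. Their nearness is therefore no sign of a shared source. VSIG4 had ratios of 1.07, -0.04, 2.44 and 1.32 and CD163 of 0.55, 0.14, 2.22 and 1.44 on arrays 1 to 4. The IL7R ratios in this measure have scanner errors of 0.43 to 0.75 and dim control spots. For NKG7 they were THBD, thrombomodulin, with 0.13 and the small GTPase gene RHOB with 0.15, and for CD247 probe 1 the RNA-binding protein gene HNRNPAB with 0.04 and the phosphatase gene PPP6C with 0.05.

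**Figure D5:**
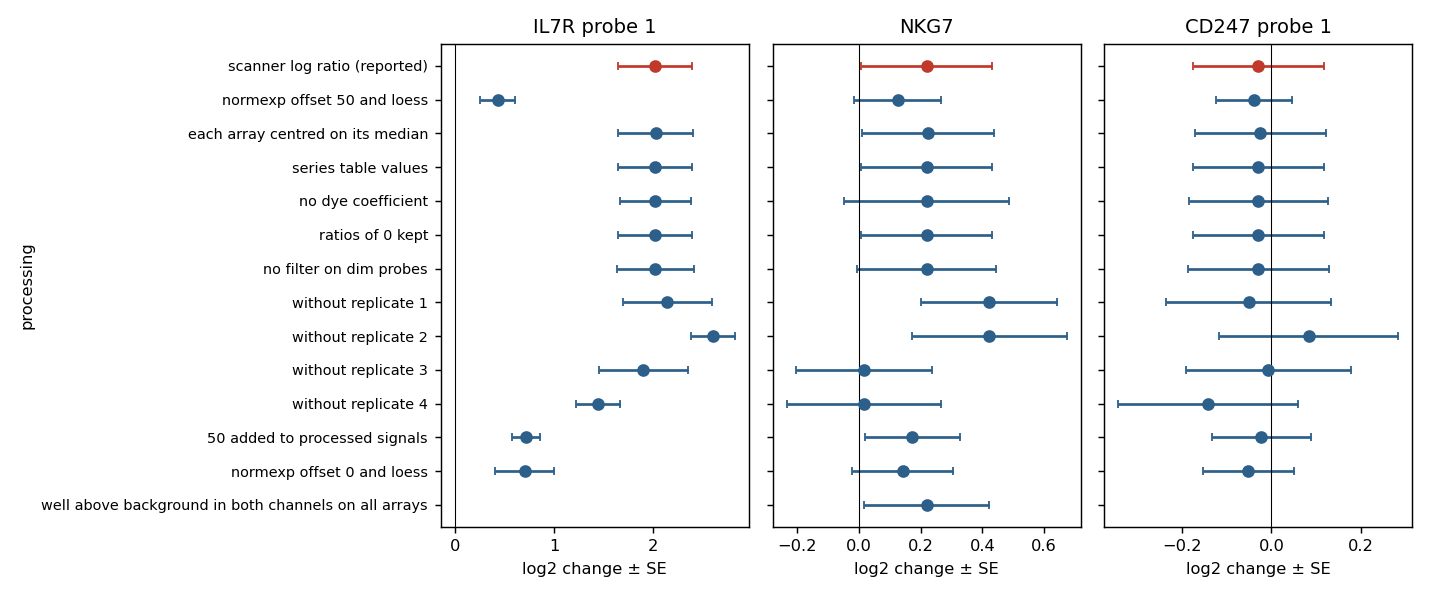
Log2 change ± SE (x axis) of the 3 tested member probes under each way of processing (y axis), with the reported value in red. IL7R probe 1 lies above 0 throughout, between 0.43 and 2.60, while NKG7 runs from 0.02 to 0.42 and CD247 probe 1 from -0.14 to 0.08.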

How the data were processed

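Labelled cRNA (825 ng per dye) from RNA with an integrity number of 8 to 10 was hybridised, per the labels' protocols. The authors' deposited scanner files were made with Agilent Feature Extraction 10.7.3.1, per the file headers, and hold processed intensity with its error and the log10 ratio of Cy5 over Cy3, computed after background subtraction and dye normalisation, as the file headers record. The deposited series table holds log2 ratios; its centring is not given in the sources used here, and 100% of its compared values lay within 0.01 of the turned scanner ratios on each array. Its column medians were -0.10, 0.13, -0.14 and 0.16.

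The scanner ratio was converted to log2 and turned to treated over control. A ratio of exactly 0, made for 18.1% to 28.9% of spots, was taken as missing. Spots of a probe were averaged, and control and outlier-marked spots were left out. A probe was tested if 3 or more of its 4 treated, or of its 4 control, spots were well above background and all 4 ratios existed: 22074 probes, after 214 were dropped for a missing ratio. limma 3.58.1 (R 4.3.3) fitted treatment and a dye coefficient, two-sided, with Benjamini-Hochberg adjustment at 0.05, and was tested on simulated data. Floors used signals after Aquantile normalisation between arrays.

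RefSeq accessions, without versions, named 6700 probes of 3029 genes through a table of assembly Sscrofa11.1, used for names only. The brightest tested probe stood for a list gene. Named were all member probes, and per list the called genes or else the 2 with the smallest p. The 2 brightest tested genes of a list were named as examples, and per tested member the 2 nearest genes. CD14, AMPD1, CD3G, the granzymes and untested genes were named outside this rule, after their values were seen. The members and lists were chosen with earlier results of these data known. No sequences are shown. Some list genes are not reported here.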

Additional observations from a re-analysis of the deposited data

Results flagged for a closer look

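Of 60 groups of 4 values, 1 value per array, 2 had a single array set apart from the rest; about 3 would be so by chance. PGLYRP1, a neutrophil granule gene, had a log2 ratio of -1.24 on array 4, against -0.28, -0.34 and -0.29 on arrays 1 to 3. For the list of lineage factors and effector cytokines the median was 0.20 on array 3, against -0.07, -0.06 and -0.11 on arrays 1, 2 and 4. No member probe was set apart in this way.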

How the results depend on the processing

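None of the 3 tested member probes passed under the alternatives in which it was fitted, and IL7R probe 1 and NKG7 kept their sign there. The 5 untested probes with 4 ratios have a p only without the filter on dim probes, and CD4 probes 1 and 2 and CD8A probe 2 have none. Leaving out 1 array gave 1.44 to 2.60 for IL7R probe 1 and 0.02 to 0.42 for NKG7. CD247 probe 1 ran from -0.14 to 0.083, the latter without array 2; the cause was not tested. Over all probes, 12 were called higher without array 3 and 0 in the other omissions, and 0 were called lower in each omission. IL7R probe 1 and CD247 probe 1 have no value when both channels had to be well above background on all arrays. The alternatives with an offset of 0 and with 50 added were chosen after seeing the data. Among other named genes, TPM2 ran from -0.38 to 0.057, the latter without array 1, and EPCAM at -0.27 with normexp (offset 50) and loess and at -0.60 with an offset of 0. Of the list medians, 6 values moved by more than the spread between arrays and 134 did not. A slide block equals the fit without array 4. No paired analysis was possible because each ratio already pairs the 2 RNAs of an array. Signals near background limit all members but NKG7. CD247 probe 1 was well above background in 6 of 8 channels.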
